A study of Drosophila melanogaster with 3 samples.

Results

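The genes described here encode the factors that start and extend protein synthesis on cytosolic ribosomes in Drosophila melanogaster. They were taken as all protein-coding genes of the Ensembl annotation whose symbol starts with eIF (initiation factor) or eEF (elongation factor), which gave 52 of the 13945 protein-coding genes on the 6 chromosome arms with peaks. The measurement was chromatin immunoprecipitation followed by sequencing, which locates the DNA that a protein occupies. All samples were whole embryos of mixed sex, 0 to 18 hours old, from 1 transgenic line that stably expresses Nf-YC with green fluorescent protein fused to its C terminus, and the tag was the target of the antibody. There were 3 biological replicates in 1 group, which leaves no conditions to compare, and no test between groups was run. The peak files give no read counts, so the depth behind each peak is unknown, and all replicates were called against 1 shared control alignment. Such embryos span most of embryonic development and hold every cell type at once, so a peak does not say in which cells or at which stage the gene was occupied.

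Initiation factors bring the initiator tRNA, the small ribosomal subunit and the capped end of an mRNA together, find the start codon and let the large subunit join. Elongation factors then deliver each charged tRNA and move the ribosome along the message. Nf-YC is a histone-fold protein that pairs with Nf-YB and, joined by Nf-YA, forms NF-Y, a complex known for binding CCAAT boxes in promoters. Most translation factors are needed in every growing cell, and some have paralogues that in flies serve the germ line.

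The sequences below lie at or near summits on which the account of sequence content rests, and were read from the Release 6 genome, the dm6 build of the peak files. Each is written 5′ to 3′ on the strand of its gene. In the first 4 the capitals mark CCAAT, or ATTGG where CCAAT lies on the opposite strand. They lie at chr3R:24109145-24109225, chrX:1162062-1162142, chrX:16448514-16448552 and chr2L:5052654-5052682. Those of eIF4EHP and eIF4E7 hold the summit, and those of eIF4H1 and eIF3h are stretches around the motif that do not reach it.
eIF4EHP: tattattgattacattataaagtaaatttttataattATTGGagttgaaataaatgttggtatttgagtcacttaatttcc
eIF4E7: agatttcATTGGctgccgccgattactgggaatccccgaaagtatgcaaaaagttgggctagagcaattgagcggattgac
eIF4H1: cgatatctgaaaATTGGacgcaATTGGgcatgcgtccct
eIF3h: cattaactacgtCCAATgcgacggactgg
The sequences of eEF1gamma (chr3R:29220113-29220171) and eIF3a (chr3R:4433896-4433964) end 1 base before a transcription start site (TSS) of the gene. Their capitals mark TATCGATA, the DNA replication-related element, which reads the same on both strands.
eEF1gamma: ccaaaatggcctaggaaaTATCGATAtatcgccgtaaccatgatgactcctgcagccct
eIF3a: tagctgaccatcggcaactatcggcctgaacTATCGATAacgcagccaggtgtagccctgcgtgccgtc
The sequence of eIF1 (chr3L:3223096-3223176) is shown because its summit was among the 5 strongest of the 52 genes while neither motif lies in the stretch printed.
eIF1: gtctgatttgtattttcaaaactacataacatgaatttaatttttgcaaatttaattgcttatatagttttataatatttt

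By the count used here, Nf-YC was bound near a start site of 23 of the 52 translation factor genes. A gene was counted as bound when the summit of a peak in the set thresholded by the irreproducible discovery rate (IDR) fell no further than 500 bp from a TSS of the gene. That is 44.2% of the translation factor genes, beside 30.6% of all protein-coding genes. The bound genes came from most steps of the pathway: both factors of start codon scanning, eIF2beta, eIF2A, eIF2D, eIF2Bdelta, 6 of 16 eIF3 genes, 6 of 13 eIF4 genes, eIF6, eEF1alpha1, eEF1gamma, eEF2 and eEF5. No test was made of the difference between the 2 shares, because the list was chosen with results of these data known.

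In the longer lists, which hold 30000 peaks each whatever the strength of binding, the shares lay closer together or further apart by list. A summit of the pooled list lay within 500 bp of a TSS at 26 translation factor genes (50%), beside 46.1% of all genes. The replicate 1 list had one at 32 (61.5%, beside 47.3%), the replicate 2 list at 33 (63.5%, beside 48.7%) and the replicate 3 list at 30 (57.7%, beside 48.9%). All 3 replicate lists had one at 24 genes (46.2%, beside 36.7%), and at least 1 of them did at 38 (73.1%, beside 60.1%). The translation factor share was the higher in each of these lists, by the smallest margin in the pooled list.

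**Figure D1:**
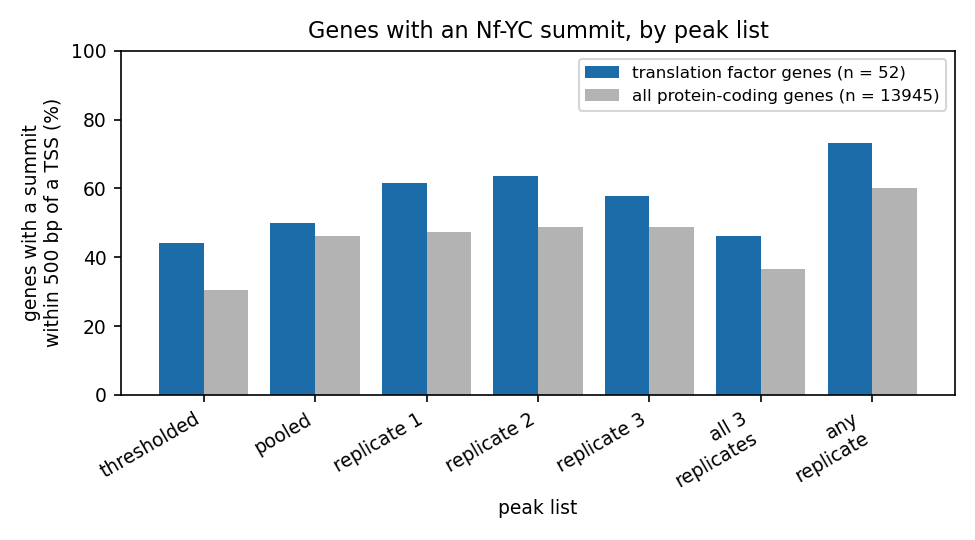
Share of genes with an Nf-YC summit within 500 bp of a TSS (y axis, percent) in each peak list (x axis), for the 52 translation factor genes (blue) and all 13945 protein-coding genes (grey). The blue bar is the higher in every list, with 44.2% and 30.6% in the thresholded set and 50% and 46.1% in the pooled list.

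The bound translation factor genes had peaks of middling strength. Strength is given here as the signal in the deposited peak files, an arbitrary scale that differs between lists, while a rank of 1 is the strongest peak of its list. Over the 23 genes the strongest thresholded peak had a median signal of 583 and ran between 247 and 3862, beside a median of 533 and a highest value of 81383 over the 4265 bound genes of the genome. Of the 23, 5 (21.7%) ranked in the top 25% of the set, beside 28.4% of all bound genes, and 4 (17.4%) in the bottom 25%, beside 19.0%. By signal the 5 were eIF4EHP, eIF6, eIF4A, eIF1 and eEF1gamma.

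Among the cap-binding and mRNA-unwinding factors, the strongest peak belonged to eIF4EHP, a cap-binding protein that represses translation of some mRNAs in the fly embryo. Its peak lay on 3R (24108906 to 24109430, intergenic) with a thresholded signal of 3862. The replicate signals were 1759, 1152 and 941 in replicates 1, 2 and 3, with a mean of 1284 ± 425 (SD, n = 3). The peak ranked 388, 416 and 345 in those lists, so its place was nearly the same in each although the signals differed. The summit lay 225 bp upstream of the eIF4EHP TSS and only 151 bp from a TSS of CG18428, which faces the other way. The peak therefore cannot be given to eIF4EHP alone.

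The peak of eIF4A, the RNA helicase that unwinds mRNA ahead of the scanning ribosome, lay on 2L (5982293 to 5982793) with a signal of 1778. It had signals of 878, 554 and 358 in replicates 1, 2 and 3 (597 ± 263, SD, n = 3) and ranks of 788, 853 and 908. The summit was 41 bp upstream of an internal TSS, in the 5′ UTR of longer eIF4A transcripts, and 789 bp from the TSS of the canonical transcript. The second thresholded summit of eIF4A, with a signal of 1084, lay 159 bp downstream of a TSS. With only the canonical TSS of each gene, eIF4A was the 1 gene of the 23 that was no longer counted.

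The other bound genes of this group had weaker peaks. eIF4E1, the main cap-binding protein, had a peak on 3L (9402372 to 9402577) with a signal of 435. Its replicate signals were 246, 129 and 85.7 (154 ± 83.1, SD, n = 3), and its summit lay 55 bp downstream of a TSS in the 5′ UTR. eIF4G2, the paralogue of the eIF4G scaffold known for its part in male meiosis, had a signal of 536 on 3R (23819179 to 23819423). Replicates 1, 2 and 3 gave it 258, 218 and 78.8 (185 ± 94.2, SD, n = 3), with the third lowest. CG33111 has a TSS at the same base as eIF4G2, so the summit was 58 bp upstream of both. eIF4H1, related to the human helicase cofactor eIF4H, had a signal of 274 on X (16448242 to 16448721) and a summit 183 bp upstream, with a TSS of CG34015 at 180 bp. Within 100 bp of that summit, replicates 1 and 3 had 160 and 79.4, while the strongest summit of replicate 2 lay nearer to the TSS, with 74.2.

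eIF4E7 was the only bound member of the 5 numbered eIF4E paralogues from eIF4E3 to eIF4E7. Its peak lay on X (1161948 to 1162247) in an intron of the gene, 287 bp downstream of the TSS, with a signal of 619. Replicates 1, 2 and 3 gave signals of 251, 167 and 200 (206 ± 42.4, SD, n = 3), with replicate 2 the lowest. eIF4E3, known for its role in spermatogenesis, eIF4E4 and eIF4E5 had no summit within 500 bp of a TSS in any list. eIF4E6 had 1 in replicate 3 alone, with a signal of 34.5 at rank 12269. The scaffold gene eIF4G1, on chromosome 4, and eIF4H2 had none in any list. eIF4B, a helicase cofactor whose gene lies near the centromere of 3L, had a summit in replicate 3 alone (68.9, rank 5977), and its nearest thresholded summit was 3134345 bp away.

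Both genes for start codon scanning factors were bound, and both share their promoter with a neighbour. eIF1 had thresholded summits 205 and 2 bp upstream of its TSS, with signals of 1061 and 513, in the same peak region on 3L (3222811 to 3223422). At the stronger, replicates 1, 2 and 3 had signals of 500, 264 and 335 (366 ± 121, SD, n = 3), and the ranks of 1425, 1998 and 977 put it highest in replicate 3. RpL28, a gene for a ribosomal protein of the large subunit, faces the other way with a TSS 176 bp from that summit, nearer than that of eIF1. eIF1A had a signal of 508 on 3R (18274489 to 18274717), with 235, 140 and 165 in the replicates (180 ± 49.3, SD, n = 3). Its summit was 92 bp upstream, and a TSS of Vps39, a vesicle tethering gene, was 127 bp away.

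The genes of eIF2, the factor that carries the initiator tRNA, differed among themselves. The beta subunit gene had a peak on 3L (12526519 to 12526998) with a signal of 399, 28 bp upstream of its TSS, and 181, 183 and 58.1 in replicates 1, 2 and 3 (141 ± 71.6, SD, n = 3). The alpha subunit gene, which encodes the subunit phosphorylated under stress, had no thresholded summit, and its pooled summit of 215 lay below the lowest signal of the thresholded set, 246. That summit was 33 bp upstream of the TSS, and the replicate lists had 102, 91.9 and 20.4 there, at ranks of 9407, 7542 and 22679. The gamma subunit gene, which encodes the GTP-binding subunit, had no summit in any list. Of the 5 genes of eIF2B, which recharges eIF2 with GTP, eIF2Bdelta alone was bound, with a signal of 251 on 2R (23386207 to 23386686). That summit lay 74 bp upstream of eIF2Bdelta and 16 bp from a TSS of roh, and had 88.5, 98.7 and 61.8 in the replicates (83.0 ± 19.1, SD, n = 3). eIF2Balpha had no summit in any list. eIF2Bbeta had 29.7 in replicate 3 alone, eIF2Bgamma had 86.7 and 17.3 in replicates 1 and 3, and eIF2Bepsilon had 89.3 and 103 in replicates 1 and 2, none of them in the pooled list.

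Both eIF2A and eIF2D, which in mammals can bring an initiator tRNA to the ribosome without eIF2, were bound. eIF2A had a signal of 764 on 3L (21824771 to 21825035), 16 bp upstream of an internal TSS and in the 5′ UTR of a longer transcript. Replicates 1, 2 and 3 had 379, 294 and 110 (261 ± 137, SD, n = 3). eIF2D had a signal of 456 on 3R (29151728 to 29151970), 100 bp upstream, with 255, 151 and 60.1 (155 ± 97.6, SD, n = 3). In both, replicate 3 gave the lowest signal and the weakest rank.

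**Figure D2:**
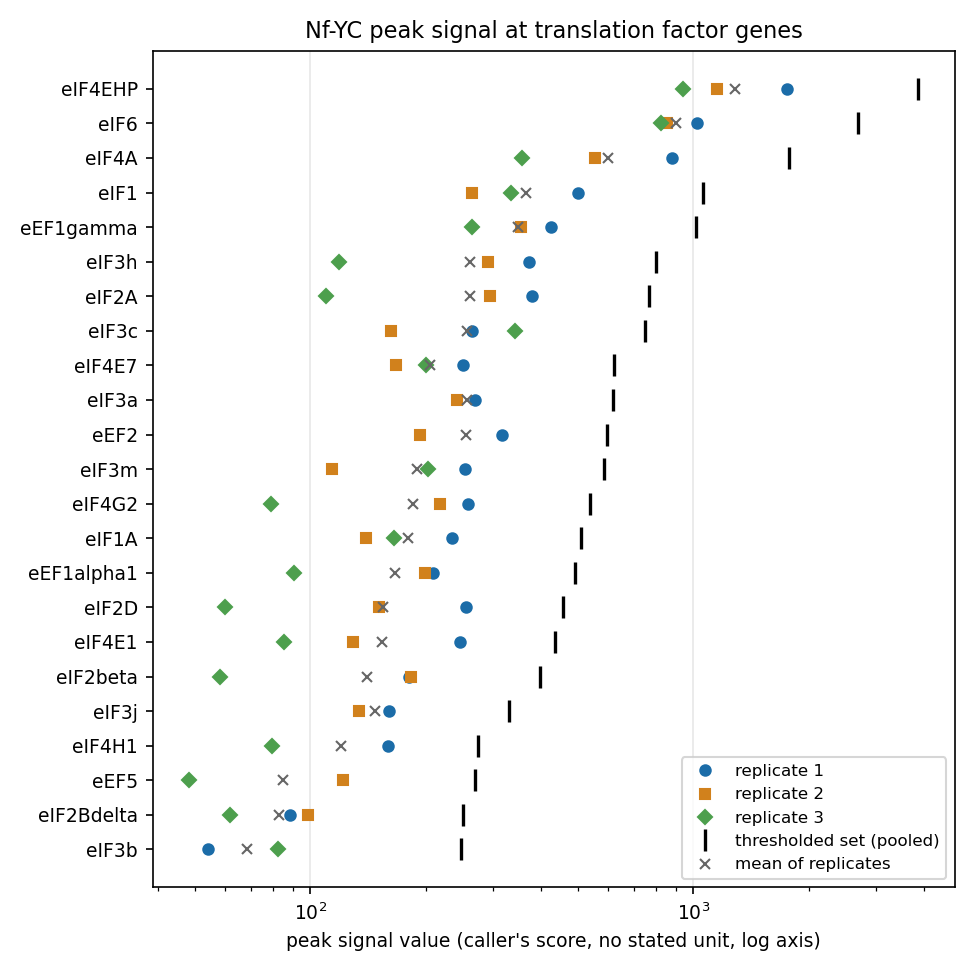
Signal value of the strongest thresholded peak at each of the 23 bound genes (black bars) and of the strongest summit within 100 bp of it in each replicate list (coloured markers), with the mean of the replicates found (crosses), on a log axis. Genes run from 3862 at eIF4EHP to 247 at eIF3b, and a missing marker means that the replicate had no summit within 100 bp.

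eIF3 is the large scaffold that sits on the small ribosomal subunit. Of its 16 genes 6 were bound, beside 30.6% of all genes: eIF3a, eIF3b, eIF3c, eIF3h, eIF3j and eIF3m. The strongest was eIF3h on 2L (5052630 to 5052924), with a signal of 798 and a summit 22 bp downstream of a TSS in the 5′ UTR. A TSS of senju, which faces the other way, was 85 bp from that summit. At eIF3h the signals were 372, 291 and 119 in replicates 1, 2 and 3 (261 ± 129, SD, n = 3), with replicate 3 the lowest. The peak of eIF3c, a core subunit, on 2R (17665437 to 17665804) had a signal of 746, 56 bp upstream of a TSS, and went the other way among the lists. Its replicate signals were 264, 163 and 343 (257 ± 89.9, SD, n = 3), and its rank of 950 in replicate 3 stood ahead of 3095 and 3735 in replicates 1 and 2. eIF3m on 2R (14164606 to 14164865) had a signal of 583 and 253, 114 and 203 in the replicates (190 ± 70.4, SD, n = 3). Its summit lay 41 bp downstream of a TSS and 267 bp from a TSS of CG8323, which faces the other way.

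Replicate 3 stood apart at eIF3a and eIF3j. The peak of eIF3a, the largest core subunit, on 3R (4433785 to 4434062) had a signal of 618, with 270 and 242 in replicates 1 and 2 at ranks of 3001 and 2201. Replicate 3 had no summit within 100 bp. The only summit of that list within 500 bp of the eIF3a TSS was 263 bp upstream, with a signal of 16.2 at rank 29364. The thresholded summit lay 34 bp upstream of the eIF3a TSS and 36 bp from a TSS of CG1074, which faces the other way. eIF3j, for a loosely attached subunit, likewise had 161 and 134 in replicates 1 and 2 and no summit in replicate 3 within 500 bp, with a thresholded signal of 330 on 2R (9968846 to 9969325), 22 bp downstream of a TSS. eIF3b, another core subunit, had the weakest counted peak of the 23. Its signal of 247 on 2R (17536204 to 17536683), 111 bp downstream of a TSS, stood at rank 7462 of 7476, just above the lowest of the set, with 54.1 and 82.5 in replicates 1 and 3 within 100 bp of it.

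The other 10 eIF3 genes were unbound. eIF3d1, eIF3d2, eIF3e, eIF3f2, eIF3g2 and eIF3i had no summit within 500 bp of a TSS in any list. eIF3f1 had one in replicate 2 alone, 17 bp downstream of the TSS, with a signal of 168 at rank 3611, stronger in rank than the replicate 2 summit of the bound gene eIF3c. eIF3l had 137 at rank 6918 in replicate 1 and 78.9 at rank 8837 in replicate 2, and none in replicate 3 or the pooled list. eIF3g1 had 26.3 and 24.6 in replicates 1 and 2, near the bottom of those lists, and eIF3k had 51.3 in replicate 3 alone.

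Among factors acting at subunit joining, eIF6 had the second strongest peak of all 52 genes. eIF6 keeps the large subunit from joining too early and serves in its assembly. The peak on 2R (23850173 to 23850608) had a signal of 2689 and lay 110 bp upstream of the eIF6 TSS in an intron of ytr. With 1020, 854 and 822 in replicates 1, 2 and 3 (899 ± 106, SD, n = 3), its signals had the smallest SD relative to their mean among the 3 strongest peaks. eIF5, which triggers GTP hydrolysis on eIF2, had no thresholded summit. Its pooled summit had a signal of 200 at rank 9158, with 133 in replicate 1 at rank 7150, 18.8 in replicate 2 at rank 28900 and none in replicate 3. eIF5B, the GTPase of subunit joining, had 95.1 and 66.9 in replicates 2 and 3, with summits 11 bp downstream and 141 bp upstream, and none in replicate 1 or the pooled list.

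Of the 8 elongation factor genes, 4 were bound, beside 30.6% of all genes. The strongest peak was at eEF1gamma, part of the complex that recharges eEF1alpha, on 3R (29219909 to 29220306) with a signal of 1017, 19 bp upstream of a TSS. Replicates 1, 2 and 3 had 425, 354 and 264 (348 ± 80.7, SD, n = 3), at ranks of 1722, 1388 and 1292. The other genes of that exchange complex were unbound: eEF1beta had 62.9 and 40.2 in replicates 1 and 2 alone, and eEF1delta had a pooled summit of 83.4 at rank 19089 and 60.2, 87.0 and 39.2 in replicates 1, 2 and 3. eEF1alpha1, which delivers charged tRNAs, had 3 thresholded summits, more than any other of the 52 genes, with signals of 491, 329 and 266 by 3 of its 4 TSSs. The strongest, on 2R (11890910 to 11891204), had 209, 199 and 91.0 in the replicates (166 ± 65.3, SD, n = 3), 72 bp upstream of eEF1alpha1 and 84 bp from a TSS of ERp60, a protein disulfide isomerase gene.

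eEF2, the translocase that moves the ribosome by a codon, had a signal of 595 on 2L (21681934 to 21682358), 42 bp downstream of a TSS. It had 317 and 194 in replicates 1 and 2, whereas the strongest summit of replicate 3, with 135, lay 51 bp upstream of a TSS and over 100 bp from that thresholded summit. A second thresholded summit of eEF2 in the same peak region, with a signal of 262, lay 126 bp upstream of a TSS, on the same side as that of replicate 3. eEF5, the hypusine-bearing factor also called eIF5A, had a signal of 269 on 2R (24057560 to 24058039), 2 bp from a TSS. Within 100 bp of that summit, replicates 2 and 3 had 122 and 48.3 and replicate 1 had none. The strongest summit of replicate 3 near the gene lay elsewhere, 106 bp upstream, with 151 at rank 2487. eEFSec, which delivers selenocysteine tRNA, had no summit in any list. eEF1alpha2, the paralogue of eEF1alpha1, had 43.7 and 32.6 in replicates 1 and 2, at ranks of 19793 and 19728, and no thresholded or pooled summit.

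Replicates differed in how firmly they placed these summits. The strongest thresholded summit of a gene had a counterpart within 100 bp in all 3 replicate lists at 17 of the 23 genes (73.9%), beside 79.2% of all bound genes. The exceptions were eEF2, eEF5, eIF3a, eIF3b, eIF3j and eIF4H1. Within 500 bp of a TSS, rather than 100 bp of the summit, all 3 lists had a summit at 22 of the 23, all but eIF3j. The median signal at the members' summits was 256 in replicate 1 (22 genes), 194 in replicate 2 (21 genes) and 114 in replicate 3 (20 genes). The whole lists stepped down in the same order, with medians of 61.6, 45.3 and 29.0 over all their peaks, so an SD given here includes the difference in scale between lists. Over the 23 genes the weakest replicate rank was a median of 1.70 times the best one.

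Of the 29 unbound genes, 14 had no summit within 500 bp in any of the lists, 5 had one in 1 replicate, 8 in 2 and 2 in all 3. The genes with one in all 3 were eIF2alpha and eEF1delta, and these with eIF5 were the 3 unbound genes of the pooled list. The nearest thresholded summit to an unbound gene was 698 bp away, at eIF2Bbeta, and the median distance was 7175 bp. No matching counts over the unbound genes of the genome were made. Bound and unbound together, 73.1% of the 52 genes had a summit in at least 1 replicate list, beside 60.1% of all genes.

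**Figure D3:**
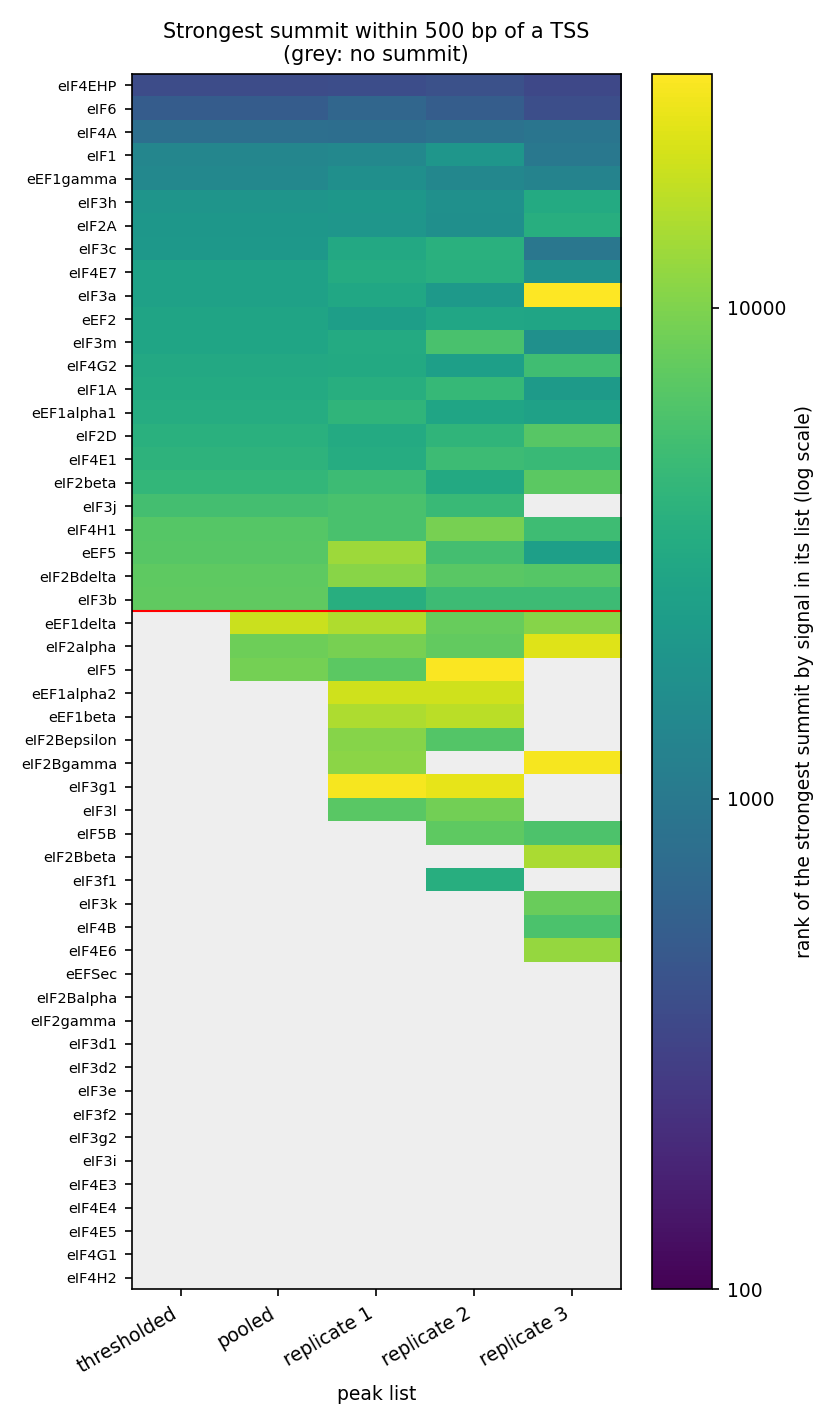
Rank by signal of the strongest summit within 500 bp of a TSS (colour, log scale, dark for strong) for each of the 52 genes (rows) in each peak list (columns), with grey where there was none. The red line divides the 23 bound genes from the 29 unbound, of which 14 are grey throughout, and eIF3a stands out among bound genes with rank 29364 in replicate 3.

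Of 6 families with a pair of numbered paralogues, none had both genes bound. The pairs eIF4G1 and eIF4G2, eIF4H1 and eIF4H2, and eEF1alpha1 and eEF1alpha2 had 1 bound gene each. In eIF3d, eIF3f and eIF3g neither gene was bound. The larger eIF4E family is not among these pairs, and eIF4E1, eIF4E7 and the related eIF4EHP were all bound. Few genes of these pairs were bound and no matching count over all genes was made, so the lack of a pair with both bound says nothing about paralogues. Of the pairs with 1 bound gene, the bound one was eIF4G2, eIF4H1 and eEF1alpha1.

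Summits lay close to the start sites of the translation factor genes. The median distance from the strongest summit to the nearest TSS of the gene was 56.0 bp, beside 132 bp over all bound genes, and 17 of 23 (73.9%) were within 100 bp, beside 37.9%. Genes with 2 or more TSSs made up 16 of the 23, beside 1813 of the 4265 bound genes. More TSSs can only shorten this distance, and their part in the difference was not tested. From the canonical TSS, the summits of eIF4A, eIF3h and eEF1alpha1 lay 789, 336 and 333 bp away, while that of eEF1gamma, with 2 TSSs, stayed at 19 bp. Upstream summits made up 15 of the 23 (65.2%) and downstream ones 8 (34.8%), beside 83.1% and 16.6% over all bound genes. By annotation 10 summits were in a 5′ UTR, 10 were intergenic and 3 were in an intron, and no matching count over all bound genes was made. Some of these features belong to other genes: the 5′ UTR at eIF2Bdelta was that of roh. The introns at eIF4G2 and eIF6 were those of CG34355 and ytr. Of the 23 peaks, 6 had the width of 480 bp shared by 22.3% of the thresholded set. In all 6 the summit was the centre of the peak, so its position there adds nothing to the bounds of the peak. For comparison, cytosolic ribosomal protein genes, found by their symbols, had a median of 47.0 bp, and 70 of 92 (76.1%) were bound. These differences were not tested.

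**Figure D4:**
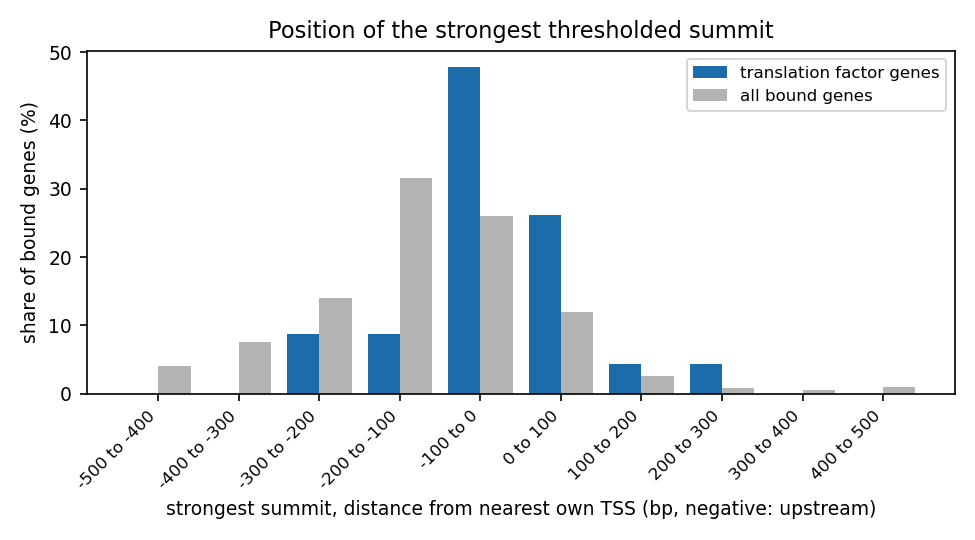
Position of the strongest thresholded summit relative to the nearest TSS of its gene (x axis, bins of 100 bp, negative upstream) as a share of bound genes (y axis, percent), for 23 translation factor genes (blue) and 4265 bound genes of the genome (grey). The blue bars peak from 100 bp upstream to the TSS, with 47.8% beside 26.0%, and the grey bars 100 to 200 bp upstream, with 8.70% and 31.6%.

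Promoter layout differed between bound and unbound translation factor genes in the number of annotated start sites. Of the 20 genes with 2 or more TSSs, 16 were bound (80.0%), beside 49.0% of such genes over the genome. Of the 32 genes with 1 TSS, 7 were bound (21.9%), beside 23.9%. A gene with more TSSs has more places at which a summit is counted, and the part of this in the difference was not tested. With the canonical TSS alone 22 of the 52 were bound, beside 27.8% of all genes. Head-to-head promoters, with a TSS of another gene on the opposite strand within 500 bp upstream, were found at 20 of the 52 (38.5%), beside 27.4% of all genes. Of these, 10 were bound (50%, beside 52.6%), and of the 32 others 13 were (40.6%, beside 22.3%). Of the 23 bound genes 10 shared their strongest summit with another gene within 500 bp, and at 4 of them, eIF1, eIF2Bdelta, eIF4EHP and eIF4H1, the other gene was the nearer. No matching counts over all bound genes were made. Giving each summit to its nearest gene only lowered the bound share from 44.2% to 38.5% of the 52 genes, and from 30.6% to 23.9% of all genes.

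CCAAT stood within 100 bp of the strongest summit at 6 of the 23 genes (26.1%), beside 37.1% of the 3985 thresholded promoter peaks. The motif was searched on both strands. At eIF4EHP the match was centred 1 bp from the summit, on the strand opposite to the gene, as printed above. At eIF6 it was 30 bp away and on the strand of the gene. The other matches were at eIF4E7, 31 bp from the summit, at eIF4H1, with a pair 46 and 56 bp away, at eIF2A, with matches 36 and 80 bp away, and at eIF3h, 90 bp away. The strongest and second strongest peaks of the group thus had CCAAT close to the summit, while eIF4A, eIF1 and eEF1gamma, the next 3, had none within 100 bp. From 250 bp before to 50 bp after the canonical TSS, CCAAT was in 6 of 23 bound and 14 of 29 unbound translation factor genes (26.1% and 48.3%). The shares were 46.4% over all bound genes and 46.6% over all genes.

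TATCGATA was near the summit of 4 of the 23 genes (17.4%), beside 7.43% of the thresholded promoter peaks. The matches were centred 1 bp from the summit at eIF3a, 18 bp at eEF1gamma, 69 bp at eIF2A and 87 bp at eIF1, as the capitals above show for eIF3a and eEF1gamma. In the window around the canonical TSS it was in 14 of all 52 genes (26.9%), beside 8.95% of all genes and 30.4% of cytosolic ribosomal protein genes. Bound and unbound translation factor genes held it in like shares, 6 of 23 and 8 of 29 (26.1% and 27.6%), beside 13.9% of all bound genes. GAGAGAG, the repeat bound by Trl, and GGTCACACT, the core of the element bound by M1BP, matched at no summit of the 23, and were within 100 bp of 7.83% and 4.39% of the thresholded promoter peaks. In the window around the canonical TSS, GGTCACACT was in 3 of the 52 genes (5.77%), beside 5.87% of all genes. GAGAGAG was there in 1 of the 52 (1.92%), beside 6.21%. All of these matches were at unbound genes. Median GC content within 100 bp of the summit was 43.8% at these genes and 39.3% at all thresholded promoter peaks. The part of base composition in the motif counts was not tested.

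CTTTT on the coding strand within 10 bp of a TSS, taken as the core of the polypyrimidine initiator known from ribosomal protein genes, was found at 3 of the 52 genes (5.77%), beside 4.58% of all genes and 40.2% of cytosolic ribosomal protein genes. They were eIF4A, which was bound, and eIF3f1 and eIF3i, which were not. In the stretches below, of 14 bases on each side of the TSS, the capitals mark CTTTT. They lie at chr2L:5981750-5981778, chr3R:4714168-4714196 and chr2L:4967761-4967789, and at eIF4A the TSS is the canonical one, from which the Nf-YC summit was 789 bp away.
eIF4A: ttttgcaagatggagcctCTTTTgcttgg
eIF3f1: ccgcactatcgataggccCTTTTcttgca
eIF3i: aggccacggtcacactgctCTTTTggcgt

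Other genes of translation were taken from a list of 29 names, of which 26 matched a gene, and 16 of the 26 were bound (61.5%, beside 30.6% of all genes). By signal the strongest were at larp, whose product binds the 5′ ends of mRNAs for the translation machinery (2517), at mRF1, for a mitochondrial release factor (2010), at the release factor gene eRF3 (1130) and at PEK, a kinase of eIF2alpha (866). The replicate signals there were 844 ± 309, 684 ± 405, 377 ± 79.0 and 289 ± 154 (SD, n = 3 each). The summit at eRF3 lay nearer to SC35, and that at mRF1 nearer to CG9426. Genes for both cytosolic release factors, eRF1 and eRF3, were bound, as was Thor, which encodes the repressor of eIF4E. Of 8 matched genes for mitochondrial translation factors, 2 were bound, mRF1 and mIF2, beside the same 30.6% of all genes.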

How the data were processed

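Chromatin immunoprecipitation with an antibody against the tag was sequenced from 3 biological replicates. Per the labels the reads were aligned to dm6, and per the deposited notes peaks were called in each replicate and in the pooled reads against 1 control alignment, and an IDR set was made from these lists. No source used here gives the aligner, the caller or the IDR cutoff. The signal values in the deposited files are a score set by the authors' caller, with no unit stated. The 7476 thresholded peaks were the 7476 strongest of the pooled list. Control reads were not analysed here.

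TSSs came from Ensembl release 115 (BDGP 6.54), and the spans of all 52 genes were the same in RefSeq. Summits were assigned within 500 bp, and replicate summits matched within 100 bp, with Python 3.11.15, numpy 2.4.6 and pandas 2.3.3. On simulated data 200 of 200 planted summits were assigned as planted. Coordinates are 1-based. All 52 genes are accounted for: those with a thresholded summit by signal, position and replicate values, the others by their strongest pooled or replicate summit or as having none. Genes with a TSS within 500 bp of a bound gene's strongest summit are named, and of the other translation genes those with the 4 highest signals. Of 29 names of other translation genes, Tor, eEF2K and mEFG2 matched none. The members and lists were chosen with earlier results of these data known. Alternatives to the windows, peak sets, TSSs, assignment and replicates are given in the closing section.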

Additional observations from a re-analysis of the deposited data

How the results depend on the processing

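Of the 52 genes, 23 were bound with the settings reported. The count was 22 within 250 bp of a TSS (without eIF4E7, 42.3% beside 26.2% of all genes) and 24 within 1000 bp (with eIF2Bbeta, 46.2% beside 33.7%). It was 22 with canonical TSSs only (without eIF4A, 42.3% beside 27.8%) and 20 with each summit given to the nearest gene only (without eIF2Bdelta, eIF4EHP and eIF4H1, 38.5% beside 23.9%). It was 23 with RefSeq TSSs. It was 26 with the whole pooled list (50% beside 46.1%), where the shares lay closest together of all settings given here. With the upper 50% of the thresholded peaks by signal it was 15 (28.8% beside 17.7%), by the construction of a shorter list. Leaving out each replicate, with thresholded summits kept that were among the strongest of both other lists, gave 16 to 18 bound genes. The thresholded set itself was made with all 3 replicates, so these counts could only fall and do not remove the part of the replicate left out. The shares were 34.6% beside 22.3% of all genes without replicate 1, 30.8% beside 21.7% without replicate 2 and 34.6% beside 24.3% without replicate 3. The number with CCAAT near the summit was 6 of 23 as reported. It was 5 of 18, 6 of 16 and 6 of 18 without replicates 1, 2 and 3. Under the other settings it lay between 4 and 8, with 4 of 20 for the nearest gene only and 5 of 15 for the upper 50% of peaks. The highest counts were 8 of 26 for the whole pooled list and 8 of 23 within 200 bp of the summit. No matching shares over all promoter peaks were made for these other settings. The number with a summit in all 3 replicate lists was 17 with summits matched within 100 bp, 11 within 50 bp, 21 within 200 bp and 18 to 20 when only 2 of the lists were asked for. No paired analysis was possible because there is only 1 group. Each replicate list ends at 30000 peaks, so a missing summit means that none ranked within that number.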
